A study of Mus musculus with 48 samples.

Results

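3T3-L1 cells in which PPARγ had been knocked down (PPARγ KD) were followed here over a single step of the differentiation course, from day 2 to day 3. The members were chosen by their labels alone and are the 3 PPARγ siRNA arrays of day 2 and the 3 of day 3, which makes 6 of the 48 arrays of the series, compared within pairs of the same replicate number over all 24613 probes. The other 42 arrays cover the remaining days and the cells given control siRNA, of which the 6 arrays of days 2 and 3 are used for comparison. 3T3-L1 is an established mouse fibroblast line that accumulates fat when given a hormone mixture. Both kinds of cells received 50 nM of pooled siRNA by lipid transfection, a SMARTpool against Pparg or a non-targeting pool, before they were differentiated. All were then taken at confluence through 0.5 mM isobutylmethylxanthine (IBMX), which raises cAMP, with 0.25 µM dexamethasone, a synthetic glucocorticoid, over 48 h, and then through 5 µg/ml insulin with 1 µM rosiglitazone, a PPARγ agonist, over a second 48 h, with medium changed every 2 days. Days are counted from rosiglitazone, so that day 2 closes the insulin and rosiglitazone period and day 3 comes 1 day later. The knockdown leaves part of the Pparg transcript in place, the cells are one line in culture, and 3 biological replicates stand behind each day.

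PPARγ is a nuclear receptor that pairs with RXR on DNA and switches on the genes of fat storage, and adipogenesis in this line depends on it. The differentiation mixture acts partly through other routes. Dexamethasone activates the glucocorticoid receptor, whose best known targets include Fkbp5 and Tsc22d3, and IBMX raises cAMP and with it the activity of CREB. Insulin promotes lipogenesis and sterol synthesis through the SREBP factors. Confluent preadipocytes given the mixture re-enter the cell cycle for a short time and lose much of their fibroblast character, which rests on contractile actin fibres and secreted matrix.

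On the 6 arrays the median deposited signal lay between 115.5 and 141.7, with a median of 34 to 36 beads behind each probe, and 33.5% to 39.6% of the probes were above background (detection p under 0.01). Replicate 3 stood apart from the other two on both days and had fewer probes above background (33.5% to 34.2%, against 38.1% or more). The paper mentions a batch effect in its arrays without naming the source. Log2 intensities after background correction and rank-invariant scaling are given throughout, and the adjusted p-values are those of limma with Bonferroni correction over the 24613 probes, called at 0.05. Of 10 fibroblast marker genes 9 were above background on all 6 arrays, Cd34 being the exception. Of 8 adipocyte markers, Fabp4, Plin1, Retn, Lep and Mrap were above background on none of the 6 arrays, Cfd was above it on day 3 alone, and Adipoq and Cidec on all 6. No skeletal muscle, endothelial or epithelial marker was above background on any of the 6 arrays, and of the macrophage markers Cd14 and Lyz2 were and Ptprc, Itgam, Csf1r, Cd68 and Adgre1 were not.

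From day 2 to day 3, 12 of 33 probes of a list of glucocorticoid-responsive genes fell in the PPARγ KD cells and none rose. On a sterol synthesis list 11 of 29 fell and none rose. On each of the contractile, matrix, protease, Wnt and TGF-β, and inflammatory lists, of 32 to 76 probes, 8 to 11 rose. On those lists 3 matrix, 1 protease and 3 inflammatory probes fell. Of the 24613 probes, 222 (under 210 gene symbols) were higher and 246 (under 229) were lower on day 3, 1.9% of the probes in all, 0.902% higher and 0.999% lower. The median log2 difference was 0.81 among the higher and −0.78 among the lower probes, and all of them moved the same way in the 3 pairs. The largest rises among probes above background on both days were in MUSTN1, ITGA11 and SERPINA3G, and the largest falls in EAR2, ALDH1A7 and HP, as the plot of values by array shows. In RNA from whole cultures, fewer cells of a kind and less RNA per cell cannot be told apart. Without replicate 1 the counts were 61 higher and 94 lower, without replicate 2 they were 74 and 94, and without replicate 3 they were 163 and 171.

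**Figure D1:**
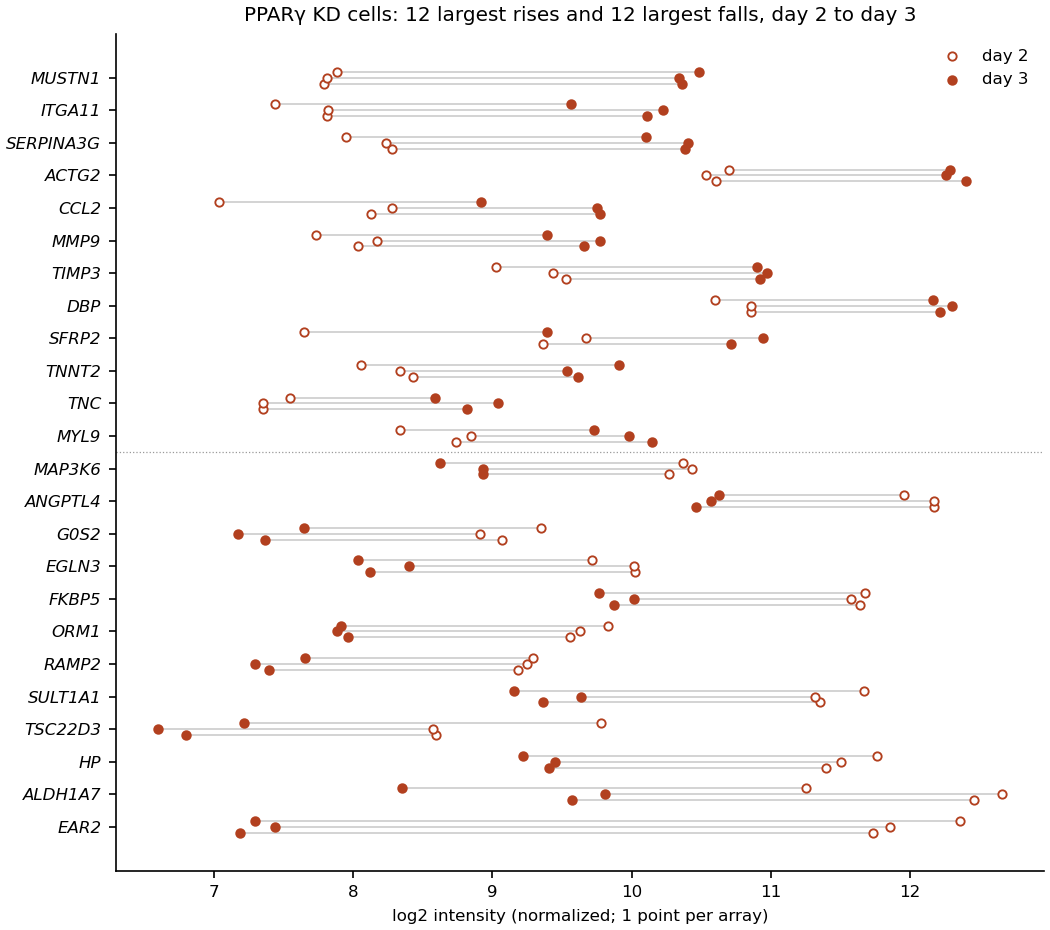
Log2 intensity (horizontal axis) of the 12 genes with the largest rise and the 12 with the largest fall in PPARγ KD cells, 1 line per replicate number, open circles for day 2 and filled circles for day 3 (n = 3 arrays a day). The days do not overlap for any of the 24 genes except SFRP2, whose replicate 3 lies below the other arrays on both days, and the longest line is that of EAR2. Genes are ranked by their largest probe and drawn by their brightest, which differ for MYL9 (1.37 and 1.31).

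The siRNA target was checked first. Pparg, read by probe 6130632, had log2 intensities of 9.60, 9.65 and 9.66 on day 2 and 8.89, 8.90 and 8.78 on day 3, so that the 3 arrays of day 3 all lay below those of day 2. The log2 difference was −0.78 (SE 0.11, adjusted p = 0.000855), against −0.08 in control cells, whose means were 11.56 on day 2 and 11.48 on day 3. The difference between those changes was −0.70 and did not pass the threshold (adjusted p = 1). Probe 1990168 was above background on 2 arrays of day 2 and on none of day 3, and probe 2680603 on none. With any 1 replicate left out the fall of Pparg was no longer called (adjusted p up to 0.371), while its size stayed between −0.82 and −0.73.

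Genes of the fat cell moved in both directions. Of 42 probes for 34 adipocyte genes, 15 were above background on all arrays of at least 1 day. Of the 42, 6 fell, the Pparg probe 6130632 among them, and 2 rose (19.0% called, against 1.9% of all probes). The list's median log2 difference was −0.05, against 0.01 over all probes. Plin4 (S3-12 on the array), a lipid droplet coat protein, fell from log2 intensities of 11.74, 11.60 and 11.52 on day 2 to 10.42, 10.42 and 10.33 on day 3, a difference of −1.23 (SE 0.08, adjusted p = 1.77e-12). All 3 arrays of day 3 were below all of day 2. Pyruvate carboxylase, which feeds citrate and glycerol synthesis (PCX, −1.25, adjusted p = 3.35e-07), angiotensinogen (AGT, −1.31, adjusted p = 0.000203), the triglyceride lipase Pnpla2 (−0.94, adjusted p = 0.0151) and lipoprotein lipase (−0.66, adjusted p = 0.00301) fell too. In control cells PCX had a difference of −0.39 and AGT of −0.48, and for neither was the difference between the kinds of cells called. The lipid droplet protein Cidec (Fsp27) had a difference of −0.70 that was not called (adjusted p = 1). Adipoq had a difference of 0.72 that was not called either.

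The rises called on this list were in Gpd1 and Cfd. GPD1, which makes glycerol 3-phosphate for triglyceride, had log2 intensities of 9.39, 9.35 and 10.01 on day 2 and 10.86, 10.88 and 10.37 on day 3 and a difference of 1.12 (SE 0.14, adjusted p = 2.55e-05), and was above background on all 6 arrays. CFD, the secreted protease adipsin, was not above background on any array of day 2 (mean 5.07) and was above it on all 3 of day 3 (mean 7.50), at least 2.04-fold higher (adjusted p = 2.31e-10). Control cells reached a mean of 13.30 on day 3. Without replicate 1 or without replicate 2 the calls of GPD1, Lpl and Pnpla2 were lost (adjusted p up to 1), as was that of AGT (up to 0.232).

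Genes that answer to glucocorticoids had the lowest median of the 19 lists. All 28 genes of that list were on the array, with 33 probes, of which 12 fell (36.4%, against 0.999% of all probes called lower) and 0 rose. In all, 30 of the 33 had a lower fitted level on day 3, and the median log2 difference of the list was −0.52 (−0.62 to −0.43 in the 3 pairs). TSC22D3 (GILZ), a leucine zipper protein, had log2 intensities of 8.60, 8.57 and 9.78 on day 2 and 6.80, 6.60 and 7.21 on day 3, a difference of −2.11 (SE 0.15, adjusted p = 3.44e-12). Replicate 3 was the highest on both days, and the days did not overlap. FKBP5, a co-chaperone of the glucocorticoid receptor, had 11.64, 11.58 and 11.67 on day 2 and 9.87, 10.01 and 9.77 on day 3 and fell 3.36-fold (−1.75, SE 0.13, adjusted p = 1.23e-11). ANGPTL4, a secreted inhibitor of lipoprotein lipase, fell by 1.55 on the log2 scale (adjusted p = 2.37e-11). The others that fell were the mTORC1 inhibitor Ddit4 (−1.14, adjusted p = 1.41e-10), the MAP kinase phosphatase Dusp1 (−0.99, adjusted p = 2.28e-08), the pyruvate dehydrogenase kinase Pdk4 (−1.20, adjusted p = 3.78e-07), Errfi1, which dampens EGF receptor signalling (−1.34, adjusted p = 1.32e-06), metallothionein 2 (−0.94, adjusted p = 1.73e-06), the glutathione transferase Mgst1 (−0.91, adjusted p = 0.000202), the guanine nucleotide exchange factor Net1 (−0.97, adjusted p = 0.00144) and lipocalin 2 (LCN2, −0.92, adjusted p = 0.00328). The list's median in control cells was −0.30, and the change differed between the kinds of cells for 1 of its probes, against 1.51% of all probes. The paper counts Mgst1 among the direct targets of PPARγ and RXR, so members of this list can answer to more than glucocorticoids. Which signal lay behind these falls was not tested. Without replicate 2 or without replicate 3 the calls of LCN2 (adjusted p up to 1) and Mgst1 (up to 0.253) were lost, without replicate 1 that of Errfi1 (0.0523), and without replicate 1 or 2 that of Net1 (up to 1), and 9 to 11 probes of the list were called lower in these fits.

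These transcripts had higher means on days 0 to 2 than at the start of the course. FKBP5 in PPARγ KD cells had a mean log2 intensity of 8.44 on day −2, 11.87 on day 0, 11.07 on day 1, 11.63 on day 2 and 9.88 on day 3, and reached 8.98 on day 6 (SD 0.23, n = 3). TSC22D3 ran from 6.65 on day −2 to 9.53 on day 0 and 8.98 on day 2, and was at 6.87 on day 3. ANGPTL4 was at 9.17, 11.91, 12.10 and 10.55 on the same days. Each of the 3 thus stayed above its day −2 level through day 2, and on day 3 TSC22D3 (SD 0.31, n = 3) lay above it by less than that SD.

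**Figure D2:**
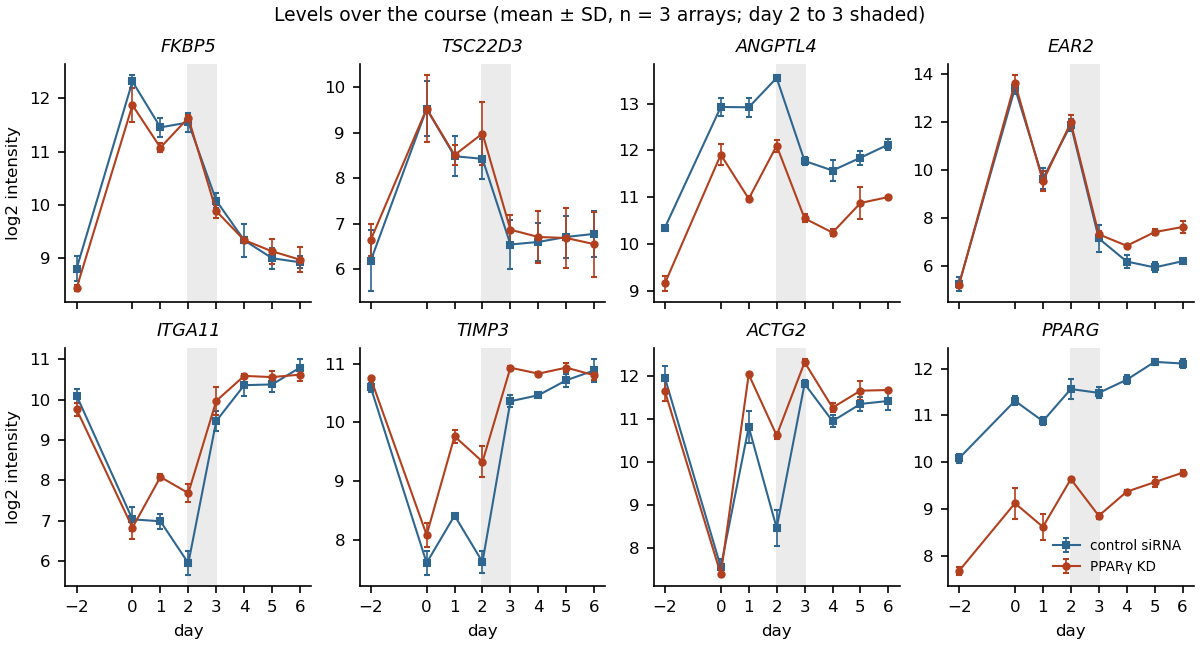
Mean log2 intensity with SD (n = 3 arrays) of 8 genes on day −2 and days 0 to 6 in PPARγ KD cells (circles) and control cells (squares), with the step from day 2 to day 3 shaded. FKBP5, TSC22D3, ANGPTL4 and EAR2 are high on days 0 to 2 and drop over the shaded step in both kinds of cells, while ITGA11, TIMP3 and ACTG2 rise over it, from a day 2 level that is higher in the PPARγ KD.

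The largest fall of a gene above background on both days was in the eosinophil-associated ribonuclease family, small secreted RNases whose genes are near-identical copies, so that a probe may read more than 1 of them. EAR2, read by probe 5670239, went from log2 intensities of 11.73, 11.85 and 12.36 on day 2 to 7.19, 7.44 and 7.29 on day 3, a 25.5-fold drop (−4.67, SE 0.22, adjusted p = 7.7e-18). Control cells changed by −4.75, and the difference between the kinds of cells was 0.07 (adjusted p = 1). A second EAR2 probe (2360471) and EAR3 were above background on all arrays of day 2 and on none of day 3, at least 7.24-fold and 7.55-fold lower (adjusted p = 8.97e-08 and 1.08e-13). The probe named BC055107 had the largest bound, with log2 intensities of 11.36, 11.50 and 11.47 on day 2 and a signal not above background on day 3, at least 29.7-fold lower (adjusted p = 1.76e-20). The microtubule-associated protein Map7d2 (MTAP7D2) was at least 2.86-fold lower (adjusted p = 1.38e-10) and the metalloproteinase inhibitor TIMP4 at least 2.47-fold lower (adjusted p = 1.59e-10).

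The other large falls were in genes of varied roles. Haptoglobin (HP), a secreted protein that binds free haemoglobin, had log2 intensities of 11.39, 11.50 and 11.76 on day 2 and 9.40, 9.45 and 9.22 on day 3, a difference of −2.19 (SE 0.14, adjusted p = 1.01e-13), and a second probe gave −1.83. The plasma glycoprotein orosomucoid (ORM1) fell by 1.76 on the log2 scale (adjusted p = 1.26e-07). The aldehyde dehydrogenase ALDH1A7 had 12.46, 12.66 and 11.25 on day 2 and 9.57, 9.81 and 8.35 on day 3, a difference of −2.88 (SE 0.14, adjusted p = 6.31e-18). Its replicate 3 lay below the other two on both days, and all 3 pairs fell. The sulfotransferase SULT1A1 had 11.35, 11.32 and 11.67 on day 2 and 9.37, 9.63 and 9.16 on day 3, a difference of −2.06 (SE 0.20, adjusted p = 6.52e-08), and its days did not overlap. The remaining large falls were in RAMP2 (−1.79, adjusted p = 2.77e-12), an accessory protein of calcitonin-type receptors, the prolyl hydroxylase EGLN3 (−1.74, adjusted p = 3.29e-10), which acts on hypoxia-inducible factors, the lipolysis inhibitor G0S2 (−1.72, adjusted p = 1.67e-08) and the kinase MAP3K6 (−1.53, adjusted p = 3.45e-12). Each was above background on all 6 arrays.

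Genes of sterol synthesis fell at several steps of the pathway. Of 29 probes for 22 genes of cholesterol synthesis and its control, 11 (37.9%, against 0.999% of all probes called lower) fell and none rose, 24 of the 29 had a lower fitted level on day 3, and the median log2 difference was −0.46 (−0.56 to −0.28 in the 3 pairs). Lanosterol synthase (LSS), which closes the ring system, had log2 intensities of 11.16, 11.23 and 10.39 on day 2 and 10.10, 10.12 and 9.67 on day 3, a difference of −0.96 (SE 0.10, adjusted p = 3.74e-07). MVD, which makes isopentenyl diphosphate, had 9.95, 9.95 and 9.66 on day 2 and 8.93, 8.87 and 8.91 on day 3, a difference of −0.95 (SE 0.11, adjusted p = 4.9e-06). For both genes every day 3 array lay below every day 2 array. The sterol dehydrogenase NSDHL fell on all 3 of its probes (−0.69, −0.89 and −0.83). Acat2, which makes acetoacetyl-CoA (−0.68, adjusted p = 0.000135), phosphomevalonate kinase (−0.72, adjusted p = 0.00209), farnesyl diphosphate synthase (−0.67, adjusted p = 0.000993), the methyl oxidase Msmo1 (−0.60, adjusted p = 0.000514), Hsd17b7 (−0.64, adjusted p = 0.00165) and the sterol carrier Stard4 (−0.51, adjusted p = 0.0172) made up the rest. In control cells the list's median was −0.49, with 12 probes called lower, against 3.92% of all probes. Without replicate 1 none of these probes was called (adjusted p = 0.0514 for LSS, 0.0562 for the brightest NSDHL probe, 0.18 for MVD and over 0.05 for the others), while 5 were called lower without replicate 2 and 6 without replicate 3.

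The promoters of this list are shown because it held the largest share of called probes. RefSeq (GRCm38.p6) gave a window of 300 bases around the gene start for 15 of its 22 genes, and the first window listed was used where a gene had several. Those of Lss chr10:76531355-76531654 (plus strand), Nsdhl chrX:72918271-72918570 (plus strand), Mvd chr8:122443373-122443672 (minus strand) and Msmo1 chr8:64733529-64733828 (minus strand) read as follows, 5′ to 3′ on the strand of the gene, with matches to CCAAT on either strand, the letters of the box bound by NF-Y, in capitals.
Lss: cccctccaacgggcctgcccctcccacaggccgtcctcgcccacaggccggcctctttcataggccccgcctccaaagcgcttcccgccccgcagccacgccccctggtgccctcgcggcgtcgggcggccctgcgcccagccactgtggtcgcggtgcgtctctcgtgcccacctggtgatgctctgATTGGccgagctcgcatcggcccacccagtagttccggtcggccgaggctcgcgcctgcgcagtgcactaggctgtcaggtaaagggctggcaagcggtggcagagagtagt
Nsdhl: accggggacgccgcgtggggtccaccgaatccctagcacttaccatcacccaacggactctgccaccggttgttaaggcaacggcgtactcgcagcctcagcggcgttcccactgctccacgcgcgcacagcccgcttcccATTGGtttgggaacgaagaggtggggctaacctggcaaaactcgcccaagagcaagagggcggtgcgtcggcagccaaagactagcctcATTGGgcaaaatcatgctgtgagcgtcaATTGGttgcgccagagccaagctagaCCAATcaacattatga
Mvd: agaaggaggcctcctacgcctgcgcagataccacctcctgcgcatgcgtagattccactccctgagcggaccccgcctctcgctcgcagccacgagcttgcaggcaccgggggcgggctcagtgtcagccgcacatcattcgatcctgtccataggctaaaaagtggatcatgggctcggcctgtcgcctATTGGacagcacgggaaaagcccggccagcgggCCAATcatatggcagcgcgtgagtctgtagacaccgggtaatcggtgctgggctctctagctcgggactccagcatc
Msmo1: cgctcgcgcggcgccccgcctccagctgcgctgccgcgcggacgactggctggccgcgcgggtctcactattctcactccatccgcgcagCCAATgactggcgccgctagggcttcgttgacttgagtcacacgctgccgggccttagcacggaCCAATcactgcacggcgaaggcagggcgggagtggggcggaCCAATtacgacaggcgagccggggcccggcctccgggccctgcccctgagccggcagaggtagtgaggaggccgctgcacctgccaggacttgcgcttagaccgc
The CCAAT letters were in 13 of the 15 windows (86.7%), against 38.5% of the 13496 windows of all genes on the array. Among the printed windows Lss holds the letters at 1 place, Mvd at 2, Msmo1 at 3 and Nsdhl at 4. The window of Acat2 holds no CCAAT and is not printed, although Acat2 fell with a smaller adjusted p (0.000135) than Msmo1 (0.000514). The printed windows thus do not stand for all called genes of the list. The letters searched for the sterol response element, TCACNCCAC on either strand, were in none of the 15 windows and in 1.19% of all. Over all genes called, CCAAT was in 45% of the windows of those that fell and in 28.8% of those that rose. These shares describe the letters in these windows and were not tested.

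Of the fatty acid synthesis probes 11.1% and of the glycolysis probes 16.7% were called, against 1.9% of all probes. Of 18 probes for fatty acid synthesis 2 fell and none rose, with a median log2 difference of −0.36 (−0.22 in control cells). Those called were Pgd, which supplies NADPH (−0.67, adjusted p = 9.41e-05), and the elongase Elovl5 (−0.40, adjusted p = 0.0499), while ATP citrate lyase (ACLY, −0.48, adjusted p = 0.0569) and fatty acid synthase (FASN, −0.47, adjusted p = 0.0609) narrowly missed the threshold. Among 24 glycolysis probes Aldoa (−0.57, adjusted p = 0.00983), Ldha (−0.58, adjusted p = 0.0262) and 1 Tpi1 probe (−0.43, adjusted p = 0.0495) fell and the neuronal enolase Eno2 rose (0.65, adjusted p = 0.000674), and the median was −0.27 (−0.61 in control cells). The call of PGD was lost without replicate 1 or without replicate 2 (adjusted p up to 1). Those of ELOVL5, ALDOA, LDHA, Tpi1 and ENO2 were lost with any 1 replicate left out (adjusted p up to 1). No probe of the 42 for oxidative phosphorylation was called by limma in either direction, while 14 had an unadjusted p under 0.05 and 4 passed a Benjamini-Hochberg adjustment, and their median was −0.14.

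Most genes of cell division had a slightly lower fitted level on day 3. Of 63 probes for DNA replication 54 had a lower fitted level on day 3, with a median log2 difference of −0.26 (−0.31 to −0.17 in the pairs), and none was called by limma, while 35 had an unadjusted p under 0.05 and 20 passed a Benjamini-Hochberg adjustment. The flap endonuclease FEN1 came nearest (−0.50, adjusted p = 0.0832), followed by the single-strand binding protein RPA1 (−0.35, adjusted p = 0.774). For mitosis the median was −0.31, 61 of 70 probes were lower and 1 was called (1.43%, against 0.999% of all probes called lower). That call, for the checkpoint kinase Bub1b (−0.63, adjusted p = 0.0277), was lost with any 1 replicate left out (adjusted p up to 1). In control cells 29 replication and 21 mitosis probes fell, with medians of −0.58 and −0.51, against 3.92% of all probes called lower there. The change was higher in the PPARγ KD for 2 replication probes, against 0.362% of all probes, and differed for no mitosis probe. Ribosome biogenesis genes had a median of −0.19 in PPARγ KD cells with none of 36 probes called and of −0.80 in control cells with 23 called lower. Of the 36, 8 had a higher change in the PPARγ KD, against that same 0.362%. In the PPARγ KD 14 had an unadjusted p under 0.05 and 9 passed a Benjamini-Hochberg adjustment on this list. For protein folding and stress in the endoplasmic reticulum limma called none of 37 probes, while 7 had an unadjusted p under 0.05 and 4 passed a Benjamini-Hochberg adjustment, and the median was −0.06.

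Contractile genes were among those that rose. Of 44 probes for 28 contractile cytoskeleton genes 8 rose (18.2%, against 0.902% of all probes called higher) and none fell. A higher fitted level on day 3 was found for 37 (median 0.19). The smooth muscle actin ACTG2 had log2 intensities of 10.60, 10.53 and 10.70 on day 2 and 12.40, 12.26 and 12.29 on day 3, a difference of 1.70 (SE 0.11, adjusted p = 7.54e-13), with no overlap between days. The myosin light chain MYL9 rose 2.48-fold (1.31, adjusted p = 1.29e-07), tropomyosin TPM1 by 0.82 on the log2 scale (adjusted p = 5.21e-07), and Tagln, an actin-binding protein, was above background on day 3 alone, at least 1.68-fold higher (adjusted p of 0.13 without replicate 1). Skeletal actin ACTA1, above background on 1 array of day 2 and all 3 of day 3, had a difference of 1.45 (adjusted p = 3.2e-06, and 0.0981 without replicate 1). The 3 probes of smooth muscle actin Acta2 differed in size, from 0.19 on the brightest, at a log2 intensity of 15.12 on day 2, to 1.07 on the one that was called. Other muscle genes stood among the largest rises, MUSTN1, a nuclear protein of muscle and skeleton, with 7.79, 7.81 and 7.89 on day 2 and 10.36, 10.34 and 10.48 on day 3 (2.56, SE 0.09, adjusted p = 8.87e-22), and troponin TNNT2 (1.41, adjusted p = 2.75e-08). The smooth muscle markers Myh11, Cnn1 and Des and every skeletal muscle marker of the list were not above background on these arrays. Without replicate 1 there were 4 contractile calls and without replicate 2 there were 6.

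Matrix genes rose on 11 of 76 probes and fell on 3 (18.4% called, against 1.9% of all probes). The 3 falls were all for versican (VCAN, −0.99, adjusted p = 1.94e-05 on the brightest probe, 0.0656 without replicate 1). ITGA11, the collagen-binding integrin chain and the second largest rise, had log2 intensities of 7.81, 7.82 and 7.44 on day 2 and 10.11, 10.23 and 9.57 on day 3, a difference of 2.28 (SE 0.13, adjusted p = 3.44e-15). Tenascin C (TNC, 1.40, adjusted p = 2.13e-10), collagen COL1A1 (0.95, adjusted p = 6.62e-07), fibronectin (FN1, 0.90, adjusted p = 1.06e-06), Col8a1 (1.09) and fibrillin 1 (0.80) rose. Decorin was called on the probe with its largest rise (0.76). Its other probes gave 0.35 on the brightest, 0.54 and 0.48, and were not called. Thrombospondin 1 was called higher on 2 probes that were not above background on any array of day 2 and were above it on 1 and 2 arrays of day 3, so no size is given. Among 32 probes for matrix proteases and their inhibitors 10 rose and 1, TIMP4, fell (34.4% called, against 1.9% of all probes). The list's median log2 difference was 0.13, with 19 probes higher and 13 lower. TIMP3, an inhibitor held in the matrix, had 9.53, 9.44 and 9.03 on day 2 and 10.92, 10.97 and 10.90 on day 3, a difference of 1.60 (SE 0.11, adjusted p = 1.47e-12), and no overlap between days. TIMP1 rose by 1.18 on the log2 scale (adjusted p = 3.18e-13), the gelatinase MMP9 by 1.63 (adjusted p = 1.65e-08) and the stromelysin MMP3 by 1.34 (adjusted p = 1.36e-08). The plasminogen activators Plat (0.83) and Plau (0.75) were also called. Some proteases and some inhibitors thus rose in the same step, while the bright MMP2 (−0.18), MMP14 (0.01) and TIMP2 (0.10) were not called. Without replicate 1 the calls were 4 higher and 1 lower on the matrix list and 4 and 1 on the protease list, without replicate 2 they were 3 and 3 and 5 and 1, and without replicate 3 they were 11 and 3 and 6 and 2. Col8a1 was lost without replicate 2 (adjusted p = 0.0813), and decorin, fibrillin 1 and Plat without replicate 1 or without replicate 2. Plau was lost with any 1 replicate left out.

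Genes of Wnt and TGF-β signalling rose on 9 of 53 probes (16.98%, against 0.902% of all probes called higher) and fell on none. The list's median log2 difference was 0.04, against 0.01 over all probes, with 31 probes higher and 22 lower. Antagonists were among the genes called, and the activity of these pathways was not tested. LTBP2, which binds fibrillin, had log2 intensities of 12.39, 12.45 and 12.43 on day 2 and 13.91, 13.78 and 13.61 on day 3, a difference of 1.35 (SE 0.09, adjusted p = 1.2e-13). The BMP antagonist GREM1 (1.26, adjusted p = 4.78e-08), the Wnt-induced matricellular proteins WISP1 (1.10, adjusted p = 1.36e-09) and Wisp2 (1.10, adjusted p = 5.87e-06), TGFB3 (0.94, adjusted p = 2.25e-10), Tgfb1 (adjusted p = 0.0294, above background on 1 array of day 2 and 3 of day 3), Wnt5a (0.69, adjusted p = 0.00131) and Smad3 (0.72, adjusted p = 3.23e-06) were called. SFRP2, a secreted frizzled-related protein, had 9.36, 9.67 and 7.65 on day 2 and 10.71, 10.94 and 9.39 on day 3. Its replicate 3 was more than 1 log2 unit below the others on both days, so the days overlapped, but each pair rose (1.45, SE 0.16, adjusted p = 9.72e-07). The serine protease inhibitor SERPINA3G was the third largest rise (2.14, SE 0.13, adjusted p = 1.09e-14). Without replicate 1 the calls of Smad3 (adjusted p = 0.0623), Wisp2 (0.237), Wnt5a and Tgfb1 (up to 1) were lost, which left 5 on the list.

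**Figure D3:**
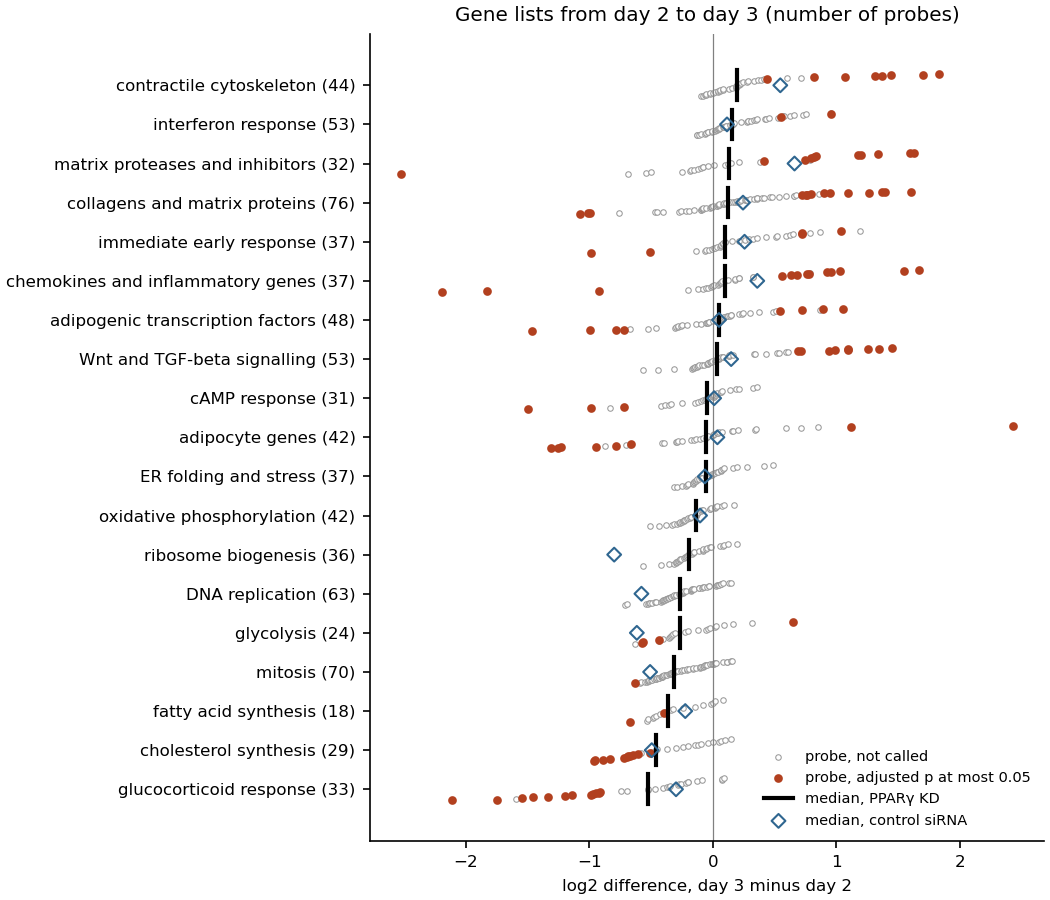
Log2 difference from day 2 to day 3 (horizontal axis) of every probe of the 19 gene lists in PPARγ KD cells, filled where the adjusted p was at most 0.05, with the list's median as a black bar and the control median as an open diamond. The glucocorticoid and cholesterol lists lie furthest to the left with medians of −0.52 and −0.46, and the control diamond is further from 0 than the bar for ribosome biogenesis, DNA replication, contractile and protease genes.

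Chemokines and other inflammatory genes rose on 10 of 37 probes and fell on 3 (35.1% called, against 1.9% of all probes). Those that fell were the 2 of haptoglobin and that of lipocalin 2. CCL2, which attracts monocytes, had log2 intensities of 8.13, 8.28 and 7.04 on day 2 and 9.77, 9.75 and 8.92 on day 3, a difference of 1.67 (SE 0.20, adjusted p = 1.26e-05). CCL7 (0.93, adjusted p = 5.59e-07, 0.0957 without replicate 1), the adhesion molecule VCAM1 (0.96, adjusted p = 8.15e-09), Cxcl1 (1.03, adjusted p = 3.89e-06), Csf1 (0.78, adjusted p = 4.78e-05), Cxcl12 (0.63, adjusted p = 0.000422), Cx3cl1 (0.68, adjusted p = 0.00327) and the IL-33 receptor Il1rl1 (0.77, adjusted p = 0.000986) rose with it. IL33, the ligand of Il1rl1, was not above background on day 2 and at least 2.38-fold higher on day 3 (adjusted p = 1.62e-07). Without replicate 1 there were 4 calls higher on the list, without replicate 2 there were 5 and without replicate 3 there were 7, and Cxcl1 (adjusted p up to 0.0779), Csf1 (0.801), Il1rl1 (0.353), Cxcl12 and Cx3cl1 (up to 1) were each lost in at least 1 of these fits. The other transcripts with large bounds, above background on day 3 alone, were the chemokine CXCL15, at least 4.2-fold higher (adjusted p = 3.47e-16), the small GTPase RERG, at least 2.61-fold (adjusted p = 8.61e-06), and RGS16, which speeds the turn-off of G proteins, at least 2.43-fold (adjusted p = 9.07e-14). Of the macrophage markers Lyz2 was the only one called, with a difference of 0.96 on 1 of 2 probes, and the summed signal of that list was 521 to 695 on day 2 and 695 to 833 on day 3. Interferon response genes had a higher fitted level on 42 of 53 probes (median 0.16), and 3.77% were called, against 0.902% of all probes called higher. Those called were IRF1 (0.55, adjusted p = 0.0118) and IFIT3 (adjusted p = 0.00306, above background on 1 array of day 3 and none of day 2). Both calls were lost with any 1 replicate left out (adjusted p up to 1).

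Immediate early genes were called in both directions and cAMP-responsive genes only as lower. The shares called were 13.5% and 9.68%, against 1.9% of all probes. Among 37 immediate early probes 3 rose, for JUN (0.72, adjusted p = 0.0108), PHLDA1 (0.72, adjusted p = 0.0059) and Cyr61 (1.04, adjusted p = 0.0339), and 2 fell, for DUSP1 and the mRNA-destabilising protein ZFP36 (−0.51, adjusted p = 0.0241). The calls of PHLDA1 and Cyr61 were lost without replicate 1 or without replicate 2, and those of JUN and ZFP36 with any 1 replicate left out (adjusted p up to 1). Of 31 cAMP probes 3 fell, for DUSP1, CEBPB and RGS2, a brake on G protein signalling that had 8.13, 8.28 and 7.64 on day 2 and 6.72, 6.87 and 5.99 on day 3 and a difference of −1.49 (SE 0.14, adjusted p = 6.65e-09). Its signal was above background on 3 arrays of day 2 and 2 of day 3. The 10 cAMP probes above background on all arrays of at least 1 day had a mean log2 intensity of 8.72 on day 2 (SD 0.15, n = 3) and 8.21 on day 3 (SD 0.09), and in control cells of 8.64 and 8.35. PPARGC1A, the coactivator PGC-1α, was above background on all 3 arrays of day 2 and on 1 of day 3, with a difference that was not called (−0.83, adjusted p = 0.193).

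Among 48 probes for transcription factors of adipogenesis 4 rose and 4 fell (16.7% called, against 1.9% of all probes). The falls include that of Pparg probe 6130632, the siRNA target. KLF5, which promotes adipogenesis early, had log2 intensities of 10.52, 10.52 and 10.74 on day 2 and 9.21, 9.15 and 9.04 on day 3, a difference of −1.46 (SE 0.12, adjusted p = 1.29e-09). CEBPB, the first C/EBP factor of the cascade, had 12.74, 12.71 and 12.73 on day 2 and 12.07, 12.04 and 11.93 on day 3, a difference of −0.71 (SE 0.08, adjusted p = 5.34e-07). Both fell without overlap between days. CEBPD had a difference of −0.52 that was not called (adjusted p = 0.109), and CEBPA, which normally follows with PPARγ, was above background on none of the 6 arrays. The preadipocyte factors GATA2 (1.06, adjusted p = 3.57e-08), Gata3 (0.89, adjusted p = 0.00996, above background on 2 arrays of day 2), Hes1 (0.72, adjusted p = 0.00677) and Dlk1 (0.54, adjusted p = 0.0132), which oppose adipogenesis, rose. The calls of Hes1 and Dlk1 were lost without replicate 1 or without replicate 2, and that of Gata3 with any 1 replicate left out (adjusted p up to 1). Of the other Krüppel-like factors KLF2, KLF4, KLF6, KLF7, KLF9 and KLF13 were above background on all 6 arrays and had differences between −0.28 and 0.51, none called, and KLF15 was above background on 1 array of day 3. The clock factor ARNTL fell (−0.99, adjusted p = 6.3e-06, 0.103 without replicate 3) and DBP, a clock output factor, rose from 10.86, 10.86 and 10.60 on day 2 to 12.21, 12.30 and 12.17 on day 3 (1.46, SE 0.11, adjusted p = 2.54e-11).

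Probes that moved from day 2 to day 3 had often moved the other way at the start of the course. The day −2 and day 0 levels come from other arrays, but the calls of both steps came from the same fit over all arrays. Both steps thus shared the variance estimate of each probe, and their calls are not independent. From day −2 to day 0 7.39% of all probes were called in PPARγ KD cells. Of the 246 probes that fell, 124 (50.4%) had been called higher on day 0 than on day −2 in PPARγ KD cells, against 3.36% of all probes, and 27 had been called lower. Of the 222 that rose, 120 (54.1%) had been called lower on day 0, against 4.02% of all probes, and 13 had been called higher. ACTG2 showed the pattern with means of 11.64 on day −2, 7.38 on day 0, 10.61 on day 2 and 12.32 on day 3, as did TIMP3 with 10.75, 8.08, 9.33 and 10.93. EAR2 ran in the opposite sense, from 5.21 to 13.64, 11.98 and 7.31. The shares of all probes given for comparison include probes that were not above background. These counts were chosen after the values were seen.

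The same step in control cells served as the comparison. Control cells changed on more probes, with 1114 higher (4.53% of all probes) and 965 lower (3.92%), 8.45% together. Of the 222 probes that rose in the PPARγ KD, 184 (82.9%) also rose in control cells, and of the 246 that fell, 139 (56.5%) also fell. In turn, 16.5% of the control rises and 14.4% of the control falls were called in the PPARγ KD. The limma test of the difference between the changes called 282 probes with a lower and 89 with a higher change in the PPARγ KD (1.15% and 0.362% of all probes, 1.51% together). With no scaling between arrays the calls were 24 lower and 15 higher. Without replicate 1 these counts were 56 and 6, without replicate 2 they were 60 and 10, and without replicate 3 they were 211 and 46.

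**Figure D4:**
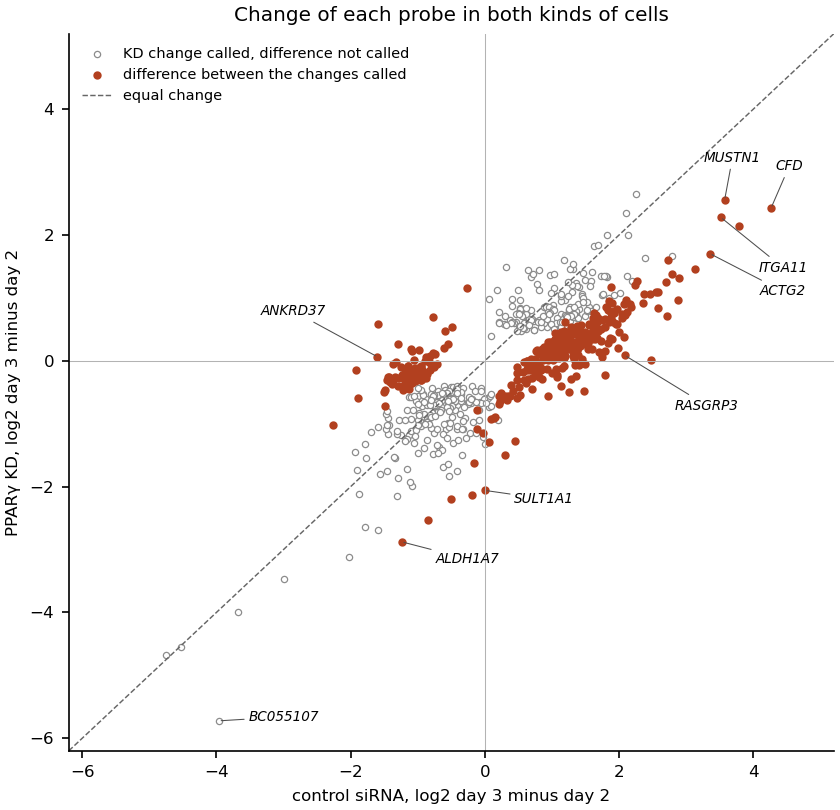
Log2 difference from day 2 to day 3 in PPARγ KD cells (vertical axis) against that in control cells (horizontal axis) for each probe whose change was called in the PPARγ KD or differed between the kinds of cells (filled), with a dashed line of equal change. Most filled points lie between the dashed line and the horizontal axis, where both changes have the same sign and that of the control cells is larger, and SULT1A1 and ALDH1A7 lie below it on the side where the PPARγ KD fell further.

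A smaller change in the PPARγ KD was the usual form of the difference. Of the 282 probes with a lower change, 204 had the same sign in both and a larger change in control cells, 70 had opposite signs and 8 fell further in the PPARγ KD. Their median change was 0.22 in the PPARγ KD and 1.20 in control cells. The kinds of cells lay far apart on day 2 and close on day 3, with a median log2 difference of PPARγ KD minus control of 1.23 on day 2 and 0.26 on day 3, and 270 of the 282 were higher in the PPARγ KD on day 2. For the 89 probes with a higher change the medians were −0.93 and −0.07, and all 89 fell in control cells. These gaps come from the arrays that chose the probes and are given as a description.

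Contractile, matrix, protease and Wnt and TGF-β probes were among those with the smaller rise in the PPARγ KD. The change was lower on 13 contractile, 13 matrix, 8 protease, 7 Wnt and TGF-β and 8 inflammatory probes and higher on none of these lists, against 1.15% of all probes with a lower change. TIMP4 on the protease list and HP on the inflammatory list are counted there because they fell further in the PPARγ KD. Some other counted probes rose in control cells and had an uncalled negative difference in the PPARγ KD. Among them were LOX (−0.28 against 0.70 in control cells), OGN probe 3710326 (−0.09 against 1.18) and ADAMTS2 probe 6840670 (−0.04 against 0.65). ACTG2 rose by 1.70 in the PPARγ KD and by 3.36 in control cells, a difference of −1.65 (SE 0.16, adjusted p = 5.77e-08), and its day 3 means were 12.32 and 11.81. WISP1 differed by −1.45 (SE 0.13, adjusted p = 8.99e-09), GREM1 by −1.45 (SE 0.17, adjusted p = 1.07e-05), TIMP3 by −1.14 (SE 0.16, adjusted p = 0.000251) and CCL7 by −1.42 (SE 0.14, adjusted p = 6.09e-08). MYL9 (−1.58, SE 0.19, adjusted p = 7.69e-06) and SFRP2 (−1.69, SE 0.22, adjusted p = 0.000125) were above background on 2 of the 3 control arrays of day 2. The exchange factor RASGRP3 had a difference in the PPARγ KD that was not called (0.09, SE 0.13) and rose at least 1.75-fold in control cells, where it was not above background on day 2 (difference −2.00, SE 0.19, adjusted p = 2.16e-08). The receptor GPR176 (−1.91, SE 0.22, adjusted p = 6.62e-06), the apolipoprotein APOC1 (−1.78, SE 0.23, adjusted p = 9.5e-05), the brightest ACTA2 probe (−1.41, SE 0.19, adjusted p = 0.000112) and 8430408G22RIK (−1.76, SE 0.22, adjusted p = 4.58e-05) completed the largest of these differences. With each replicate left out in turn the calls of RASGRP3, ACTG2, WISP1 and CCL7 held, and those of GREM1 (0.0559), MYL9 (0.0877), TIMP3 (1), SFRP2 (0.859), GPR176 (0.209), APOC1 (0.285), ACTA2 (0.527) and 8430408G22RIK (0.255) were lost in at least 1 of the 3 fits with a replicate left out, the highest adjusted p standing in parentheses.

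**Figure D5:**
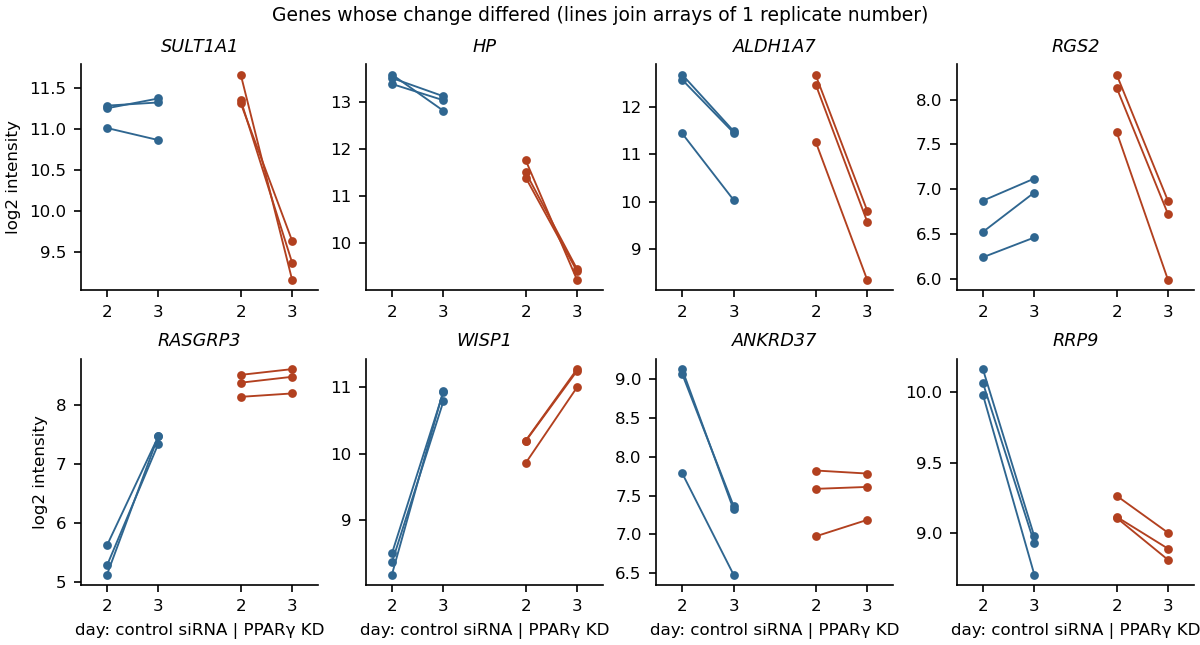
Log2 intensity of 8 genes on day 2 and day 3 in control cells (left pair of columns in each panel) and PPARγ KD cells (right pair), with a line for each replicate number (n = 3). SULT1A1, HP, ALDH1A7 and RGS2 fall further in the PPARγ KD, RASGRP3 and WISP1 rise further in control cells from a lower day 2 level, and ANKRD37 and RRP9 fall further in control cells.

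A few genes fell further in the PPARγ KD. SULT1A1 had day 2 means in the PPARγ KD and in control cells of 11.45 and 11.18, and fell in the PPARγ KD (−2.06, against 0.00, difference −2.06, SE 0.29, adjusted p = 0.000352). HP fell by 2.19 on the log2 scale, against −0.50 in control cells (difference −1.69, SE 0.20, adjusted p = 4.82e-06), and ALDH1A7 by 2.88, against −1.24 (difference −1.64, SE 0.19, adjusted p = 6.62e-06). RGS2 fell in the PPARγ KD and had a change of 0.30 in control cells, where it was above background on 1 array of day 2 (difference −1.79, SE 0.19, adjusted p = 5.77e-07). The differences of HP and RGS2 were called with each replicate left out in turn, and those of SULT1A1 (adjusted p up to 0.797) and ALDH1A7 (up to 0.175) were not. In the opposite direction, ribosome biogenesis genes fell further in control cells, with RRP9 (0.93, SE 0.12, adjusted p = 2.54e-05), the RNA polymerase I subunit RPO1-2 (0.73, SE 0.12, adjusted p = 0.00829), NOL5A (Nop56, 1.16, SE 0.20, adjusted p = 0.0222) and RBM13 (Mak16, 1.16, SE 0.20, adjusted p = 0.0361) among them, RBM13 being outside the list. The carbonyl reductase CBR3 (1.30, SE 0.12, adjusted p = 3.98e-09), ANKRD37 (1.67, SE 0.25, adjusted p = 0.00245), the RNA methyltransferase NSUN2 (1.30, SE 0.16, adjusted p = 3.89e-05) and LOC100045950 (1.15, SE 0.15, adjusted p = 0.000127) were the other largest. Of these 8, the call of CBR3 held with each replicate left out, and the others had an adjusted p of up to 0.091 for RRP9, 0.127 for NSUN2, 0.126 for LOC100045950 and 1 for the remaining 4.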

How the data were processed

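Total RNA of the 48 cultures was hybridised to Illumina MouseRef-8 BeadChips. Per the file headers and labels, the authors deposited intensities (mean bead signal per probe) read with BeadStudio 3.3.7 and not normalized, with bead counts and a detection score, which the authors deposited as a fraction equal to 1 minus the detection p. These intensities were first corrected for background by normexp, using the detection p and an offset of 16 (limma 3.58.1, R 4.3.3). Arrays were then scaled on rank-invariant probes between the 50th and 90th percentiles, and log2 was taken. A linear model (lmFit, eBayes) over the 48 arrays held 1 mean for every combination of siRNA and day, and replicate number entered as a blocking term. Probes were called where the Bonferroni adjusted p did not exceed 0.05, and the difference of steps was the interaction in the same fit. Same-numbered arrays of days 2 and 3 deviated together (correlations 0.808, 0.896 and 0.937 over 9436 probes), although replicates 1 and 2 also correlated across numbers (0.812 and 0.797). Tables and figures were made with Python 3.11.15, pandas 2.3.3 and matplotlib 3.10.9, and the fit was tested on simulated data.

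Alternatives were quantile normalization, no scaling, no background correction, an offset of 50, a filter on probes above background on fewer than 3 arrays, no block, the arrays of days 2 and 3 alone, Benjamini-Hochberg adjustment, and each replicate left out. Named were Pparg, the 12 largest rises and falls above background on both days, the 5 largest bounds and 6 largest differences from control cells each way, the 4 members of each list with the smallest p and up to 2 that moved against the rest, Cebp and Klf factors, and list members the study knocked down (Agt, Cidec, Adig). Genes were ranked by their largest probe and given by their brightest. Other called list members are given by value, chosen after their values were seen. A bound sets the day above background against, on each array of the dim day, the lowest signal among probes above background there or the probe's own, whichever was higher. Members and lists were chosen with earlier results of these data known. Symbols were matched to RefSeq, 18343 probes by symbol and 4361 by synonym, and 1909 were unmatched. Promoter windows are those of RefSeq, GRCm38.p6.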

Additional observations from a re-analysis of the deposited data

Results flagged for a closer look

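For 33 of the named genes the limma test of the difference between the steps passed the threshold, so that the change from day 2 to day 3 was not the same in PPARγ KD and control cells. Each is given as the log2 difference in the PPARγ KD against that in control cells, followed by the first minus the second. Genes with a larger fall in the PPARγ KD, or a fall there alone, were SULT1A1 (−2.06 against 0.00, −2.06), HP (−2.19 against −0.50, −1.69), ALDH1A7 (−2.88 against −1.24, −1.64) and RGS2 (−1.49 against 0.30, −1.79). Contractile and muscle genes were ACTG2 (1.70 against 3.36, −1.65), MYL9 (1.31 against 2.90, −1.58), TPM1 (0.82 against 1.97, −1.14), ACTA2 (0.19 against 1.60, −1.41) and MUSTN1 (2.56 against 3.57, −1.01). Matrix, protease and inhibitor genes were ITGA11 (2.28 against 3.52, −1.24), FN1 (0.90 against 2.08, −1.18), TIMP3 (1.60 against 2.74, −1.14), TIMP1 (1.18 against 1.88, −0.70), TIMP4 (−2.53 against −0.85, −1.67) and SERPINA3G (2.14 against 3.78, −1.64). Signalling and inflammatory genes were WISP1 (1.10 against 2.55, −1.45), GREM1 (1.26 against 2.70, −1.45), SFRP2 (1.45 against 3.14, −1.69), CCL7 (0.93 against 2.35, −1.42) and VCAM1 (0.96 against 1.85, −0.89). The others with a lower change were RASGRP3 (0.09 against 2.09, −2.00), GPR176 (0.96 against 2.87, −1.91), APOC1 (0.20 against 1.99, −1.78), 8430408G22RIK (−0.50 against 1.26, −1.76) and CFD (2.43 against 4.27, −1.84). Genes with a higher change in the PPARγ KD were ANKRD37 (0.07 against −1.60, 1.67), NSUN2 (−0.02 against −1.32, 1.30), CBR3 (−0.59 against −1.88, 1.30), NOL5A (−0.30 against −1.46, 1.16), RBM13 (−0.26 against −1.42, 1.16), LOC100045950 (0.17 against −0.98, 1.15), RRP9 (−0.26 against −1.20, 0.93) and RPO1-2 (−0.36 against −1.09, 0.73).

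On day 2, ITGA11, SERPINA3G, RASGRP3 and 8430408G22RIK were not above background on any control array, so that their control differences understate the rise, and in the PPARγ KD CFD was not above background on day 2 nor TIMP4 on day 3. Against the background the control rise was at least 7.22-fold for ITGA11, 12.6-fold for SERPINA3G and 1.75-fold for RASGRP3. Of the 33 differences, 8 passed the threshold with each replicate left out in turn (HP, ACTG2, RASGRP3, CBR3, RGS2, TPM1, CCL7 and WISP1) and 25 missed it in at least 1 of these fits.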

How the results depend on the processing

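The higher and the lower calls of the PPARγ KD step, 222 and 246, were 69 and 76 with no scaling between arrays, 22 and 35 with the arrays of days 2 and 3 alone, and 885 and 1125 after Benjamini-Hochberg adjustment, and with 1 replicate left out they ranged from 61 to 163 and from 94 to 171. The higher and the lower differences from control cells, 89 and 282, were 15 and 24 with no scaling, 8 and 60 with days 2 and 3 alone, 755 and 1212 after Benjamini-Hochberg adjustment and 135 and 364 with the filter on dim probes, and with 1 replicate left out they ranged from 6 to 46 and from 56 to 211. Quantile normalization, no background correction and an offset of 50 kept these counts within 1.5 times. All 468 called probes kept their direction under each alternative that tested them. Of the 77 named changes that were called, 52 passed with each replicate left out.

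Without the replicate block the counts were 103 higher and 100 lower for the step and 20 higher and 103 lower for the difference. Of the uncalled changes, KLF6 turned to 0.042 under quantile normalization and ranged from −0.095 to 0.034 with 1 replicate left out, ANKRD37 from −0.0072 to 0.118 and NSUN2 from −0.070 to 0.042. The cause of these shifts was not tested. Signal over background limits what can be seen, since 33.5% to 39.6% of the probes were above it on the 6 arrays, and 3 arrays a day limit the precision.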

Other observations

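Genes of the circadian clock, chosen after their values were seen, moved in both directions over the step. Of 24 probes for 17 clock genes, 10 were above background on all arrays of at least 1 day, 4 rose and 1 fell. Over all probes 1.9% were called. Those that rose were Dbp, Per2 (0.75, SE 0.10, adjusted p = 0.000225), Tef (0.57, SE 0.08, adjusted p = 0.000349) and Per3, which was above background on no array of day 2 and on 2 of day 3 in both kinds of cells, output factors and repressors of the clock, and the activator Arntl fell. In control cells the log2 differences were 1.32 for Dbp, 0.62 for Per2, 0.31 for Tef and −0.54 for Arntl, the same sign for each. The call of Tef was lost with any 1 replicate left out (adjusted p up to 1), and that of Per2 without replicate 1 or without replicate 3 (up to 0.874). That of Per3 was lost without replicate 1 or without replicate 2 (up to 1), and that of Arntl without replicate 3 (0.103). The hour of harvest is not given in the sources used here, and its part in these values was not tested.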
